A study of Canis lupus familiaris with 8 samples.

Results

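The canine T cells described here carried a T cell receptor alpha chain built from the variable gene TRAV9-11 and the joining gene TRAJ28 with a junction, the stretch that spans the rearranged ends, of 16 amino acids. They were chosen by that alpha rearrangement alone, read from the V(D)J libraries and joined to the expression libraries by cell barcode. No expression value entered the rule, but the study had reported this rearrangement in a cluster that expression defined among these same cells. Of 31909 cells that held 500 to 20000 unique molecular identifiers (UMIs) with at most 10% of them mitochondrial, 715 carried the rearrangement. The cells came from peripheral blood of 4 healthy Beagle dogs that had received routine vaccinations. Each dog gave 1 library for 5′ expression and 1 for V(D)J. Dog 1 was female and aged 5 years. Dogs 2, 3 and 4 were males aged 7, 7 and 9 years. Live single cells positive for TCRαβ were sorted from fresh mononuclear cells, then frozen, and thawed before capture. MAIT-like cells were compared with 5758 other cells that held at least 1 CD8A UMI and no CD4 UMI, and with 20079 other cells that had a TRA chain. Of the 5758 cells 3903 had a TRA chain, and the rest could carry the rearrangement unread.

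Mucosal-associated invariant T (MAIT) cells are innate-like T cells with a receptor whose alpha chain is nearly fixed. In most mammals they recognise microbial metabolites on the MHC-related molecule MR1. In human and mouse they carry the transcription factor PLZF, encoded by ZBTB16, respond to interleukin-12 and interleukin-18 without their receptor being engaged, and hold cytotoxic granules. Invariant receptors of this kind recur from animal to animal because the alpha junction needs few bases beyond the germline ends of V and J. The study states that dogs have neither MR1 nor TRAV1, the variable gene that MAIT cells usually carry. It poses the antigens of the canine cells, and how these are presented, as questions for later work. Neither was tested here.

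The 4 expression libraries held 26904346, 35661623, 32637367 and 32773374 UMIs in dogs 1 to 4, and 7096, 8454, 8109 and 8250 cells passed the filters. A TRA chain was read in 4376, 5423, 5455 and 5540 of them. Dog 1 had 161 MAIT-like cells, dog 2 had 200, dog 3 had 252 and dog 4 had 102. They made up 3.68% (95% exact binomial interval 3.14 to 4.28), 3.69% (3.20 to 4.22), 4.62% (4.08 to 5.21) and 1.84% (1.5 to 2.23) of the cells with a TRA chain, a mean of 3.46% ± 1.16 (SD, n = 4 dogs). Dog 3 was highest and dog 4 lowest, and the interval of dog 4 lay apart from those of dogs 1, 2 and 3, although intervals and floors of this kind cover counting error only. The median depth was 3585 UMIs in MAIT-like cells and 3771 in the other CD8A+ CD4- cells.

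The libraries of dogs 1 and 4 were not fully separate. In 41 cases the same alpha and beta rearrangements, identical base for base, were found together in both, in 44 of the 3956 cells of dog 1 that had both chains (1.11%) and in 602 of 4887 cells of dog 4, always under different barcodes. The other 5 pairs of libraries shared 0 such receptors. Of the 44 cells of dog 1, 2 were MAIT-like, and they matched clones of 9 and 23 cells in dog 4. Cells of a clone read in a single library could not be recognised in this way. No MAIT-like cell shared its barcode with a MAIT-like cell of another library.

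The alpha junctions are shown first, since they define the cells. In the lines that follow, capitals mark the bases that match neither the germline end of TRAV9-11 nor that of TRAJ28, and lower case marks the bases that do.
TRAV9-11 germline end: tgtgccttgagtga
TRAJ28 germline end: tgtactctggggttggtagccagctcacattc
Thr-Arg-Met, 104 cells of dog 3: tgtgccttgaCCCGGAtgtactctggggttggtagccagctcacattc
Ser-Asp-Arg, 39 cells of dogs 2, 3 and 4: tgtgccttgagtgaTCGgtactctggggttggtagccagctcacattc
Ser-Arg-Leu, 37 cells of dog 1: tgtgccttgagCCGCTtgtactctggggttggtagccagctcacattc
Ser-Glu-Val, 25 cells, 23 of them in dog 4: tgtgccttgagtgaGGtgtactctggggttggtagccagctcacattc
Ser-Pro-Met, 16 cells of dogs 1, 3 and 4: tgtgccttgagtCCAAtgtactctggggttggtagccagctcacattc
Ser-Pro-Met, 15 cells of dogs 1, 2 and 3: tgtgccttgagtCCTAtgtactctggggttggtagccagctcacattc
Ser-Pro-Met, 8 cells of dogs 1, 2 and 3: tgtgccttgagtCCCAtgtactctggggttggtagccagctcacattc
Ser-Arg-Met, 12 cells of dog 2: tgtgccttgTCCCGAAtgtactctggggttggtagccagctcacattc
The names give residues 4 to 6 of the junction, counted from its first cysteine. The last 3 Ser-Pro-Met lines encode the same protein and differ in the last base of the proline codon. The lines were chosen to show the junctions with the most cells in each dog and a protein that recurs between dogs through different bases.

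The 715 cells used 251 nucleotide junctions that encoded 151 amino acid junctions. The V end gave up to 14 bases and the J end up to 32 of the 48, and the median junction held 5 bases that matched neither end, with a range of 2 to 15. Over distinct junctions that median was 5 in each dog. Variation sat at positions 4 to 6. Residue 4 was serine, the germline residue, in 61.5% of cells and threonine in 22.1%, residue 5 was arginine in 33.8% and proline in 19.3%, and residue 6 was methionine in 42.1% and leucine in 26.0%. In contrast, leucine stood at position 3 in 97.1% of cells, tyrosine at position 7 in 95.9% and serine at position 8 in 99.9%, and positions 1, 2 and 9 to 16 each held a single residue. Leucine 3 followed, from position 7 on, by the residues that TRAJ28 encodes framed the 3 variable residues in 665 cells (93.0%), namely 155 cells of dog 1, 183 of dog 2, 237 of dog 3 and 90 of dog 4. Serine 4 was found in 83.2% of the cells of dog 1, 60% of dog 2, 39.3% of dog 3 and 85.3% of dog 4, and the low value of dog 3 went with its clone of Thr-Arg-Met cells.

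Junctions recurred between dogs. Of the 251 nucleotide junctions 33 (13.1%) were found in at least 2 dogs, 9 of them in 3 dogs and 0 in all 4, and of the 151 amino acid junctions 23.8% were found in at least 2 dogs and 5 in all 4. The amino acid junctions found in more than 1 dog covered 69.4% of the MAIT-like cells. Among all other TRA rearrangements 1.43% of nucleotide and 2.95% of amino acid junctions were shared, and among TRAV9-11 chains joined to another J gene 1.95% of amino acid junctions were. With the 44 cells of dog 1 left out, the shares were 13.1% of nucleotide and 23.8% of amino acid junctions for MAIT-like cells and 1.14% and 2.68% for other TRA chains. These shares had no test, since V, J and length chose the cells and chains of a fixed length and pair have fewer possible junctions than the mixture of all others.

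The junction shared most widely, Ser-Arg-Leu, was carried by 67 cells, 37, 10, 17 and 3 in dogs 1 to 4, through 14 nucleotide junctions, and was paired with 19 beta junctions of 9 TRBV genes. Ser-Pro-Met was carried by 26, 8, 10 and 9 cells through 8 nucleotide junctions, paired with 24 beta junctions of 8 TRBV genes. Ser-Ala-Leu (14 cells), Ser-Asp-Leu (12 cells) and Ser-Pro-Arg (8 cells) were the others found in every dog. The same alpha protein was thus built from different bases and met different beta chains. The beta chains of MAIT-like cells were private, with 2 of 327 distinct TRB rearrangements (0.612%) in more than 1 dog, and both of these belonged to the cells of dog 1 that matched clones of dog 4, so that 0 of 327 were shared without them.

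Cells just outside the rule differed in what they expressed, and their values are given as a description. Length came first. The same V and J genes with a junction of 12 to 15 or 17 amino acids were found in 32 cells that were not MAIT-like by the rule, and 0 of the 32 held an FCER1G UMI, which allows a share of up to 9.38%, against 438 of 715 (61.3%) among MAIT-like cells. Of the 17 cells with 15 amino acids, 29.4% were CD8A+ CD4-, against 93.6% of all MAIT-like cells pooled over the dogs. FCER1G encodes the common gamma chain of Fc receptors, an adaptor that natural killer (NK) cell receptors use for signalling.

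The V gene and residue 7 came next. Another 139 cells joined TRAJ28 to 1 of 8 other TRAV9 genes at 16 amino acids, and 82 of them had tyrosine at position 7. FCER1G UMIs were read in 38 of those 82 cells (46.3%) and in 3 of the 57 cells with another residue there (5.26%). The tyrosine cells held 221, 1315, 849 and 23.7 FCER1G UMIs per 1e+06 summed (CPM) in dogs 1 to 4, and the others held 0, 956, 11.3 and 0, where dog 2 had 5 cells. CD6, an inhibitory receptor of conventional T cells, was read at 102, 125, 126 and 391 CPM with tyrosine and at 832, 450, 631 and 560 CPM without it. CXCR6, a chemokine receptor of tissue-homing lymphocytes, was read in 12 of the 82 cells and in 0 of the 57, which allows a share of up to 5.26%. TRAV9 chains joined to TRAJ28 at other lengths (285 cells) had FCER1G in 1 cell (0.351%) and CD6 at 552, 452, 622 and 463 CPM. Of the 82 chains with the tyrosine, 19 had an amino acid junction that a MAIT-like cell also had. FCER1G was also read in 43 of 63 cells with TRAV9-11 and TRAJ20 at 12 amino acids (68.3%, 51 of the cells in dog 4) and in 28 of 39 with TRAV9-11 and TRAJ49 at 13 (71.8%, 30 of the cells in dog 4). GZMB was read in 19.0% and 20.5% of these cells.

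**Figure D1:**
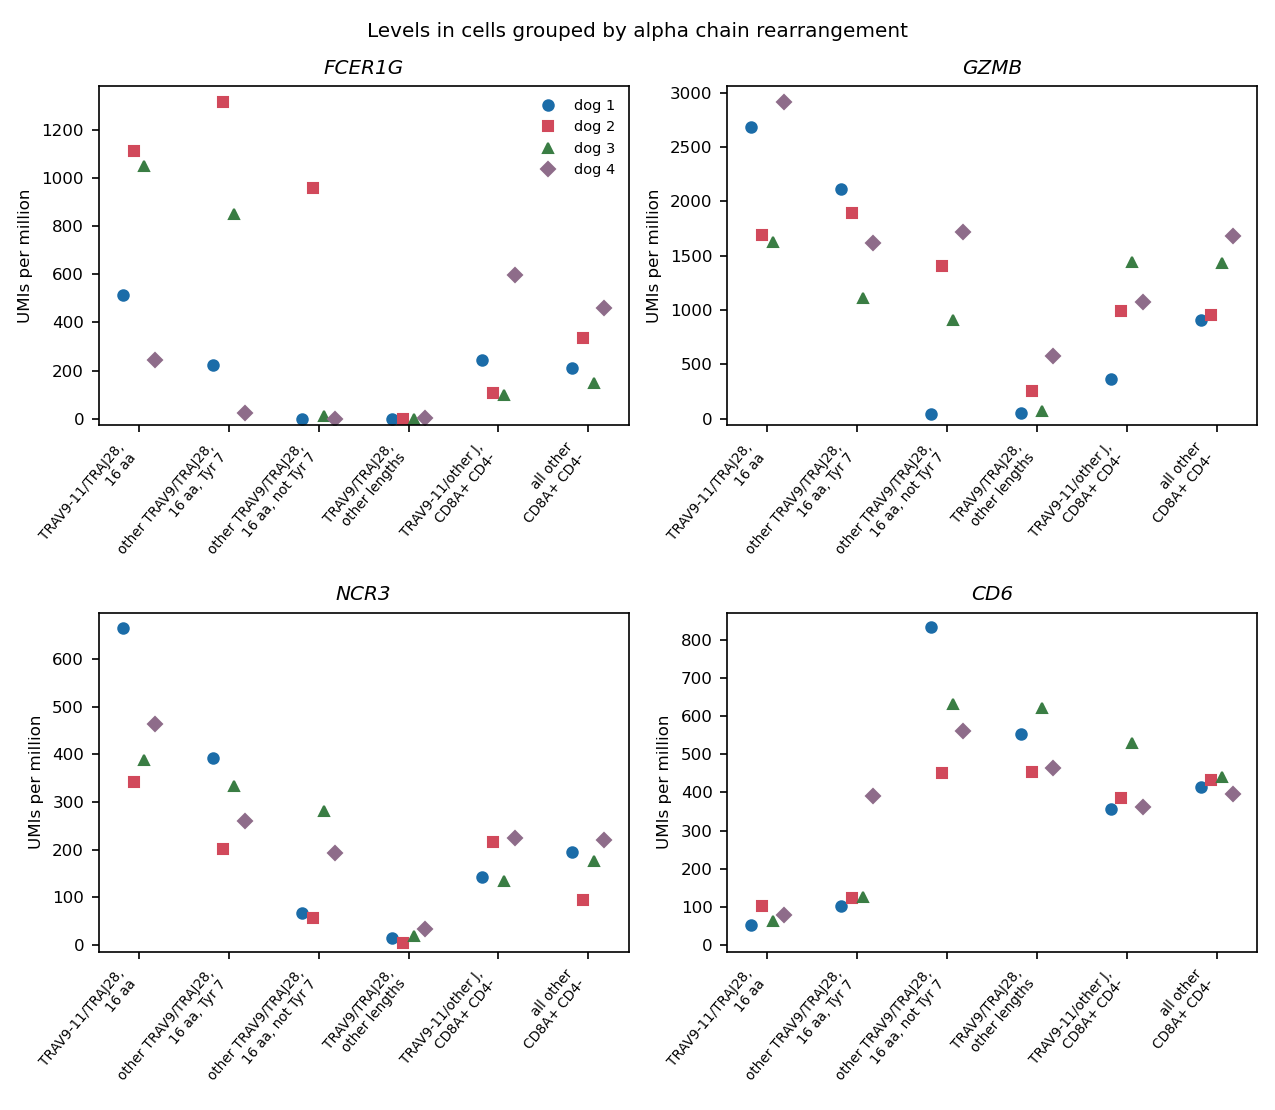
Levels of FCER1G, GZMB, NCR3 and CD6 (vertical axes, CPM of summed UMIs, from 0) in 6 populations that differ in their alpha rearrangement, with 1 point per dog. CD6 stood at 54.1 to 102 CPM in MAIT-like cells, and cells with TRAV9-11 or another TRAV9 gene joined to TRAJ28 at other lengths had FCER1G at or near 0 and CD6 at 318 CPM or more in every dog.

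MAIT-like cells were CD8A+ in every dog. A CD8A UMI was found in 96.9%, 97.0%, 98.4% and 98.0% of them in dogs 1 to 4, against 9.87%, 19.1%, 29.6% and 25.2% of the other cells with a TRA chain. The difference of 76.7 percentage points had an exact permutation p of 0.0286, two-sided, the smallest that 4 dogs against 4 can give. CD4 was read in 3.73%, 8%, 1.98% and 4.90% of MAIT-like cells against 57.2%, 49.3%, 39.1% and 46.2% of the others (exact permutation p = 0.0286). Since both populations came from the same dogs, the exact permutation p paired by dog was 0.125 for each, the smallest that 4 pairs can give. Cells with neither coreceptor made up 2.01% ± 0.368 of MAIT-like cells and 33.2% ± 1.85 of the others (SD, n = 4 dogs), and these groups did not overlap either. With each cell thinned to 2000 UMIs, the means for CD8A were 94.8% and 18.8%, against 98.2% and 21.4% in the same cells before thinning.

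The few MAIT-like cells that were not CD8A+ CD4- were of different kinds. Of the 29 cells with both coreceptors 16 (55.2%) held more than 1 beta chain, against 14 of the 669 CD8A+ CD4- cells (2.09%), and their median depth was 6988 against 3562 UMIs. FCER1G was read in 62.1% of these 29 cells. Of the 14 cells with neither coreceptor 28.6% held FCER1G and 35.7% held GZMB, and the 3 cells with CD4 alone held no FCER1G, GZMB or NCR3 UMI. The part of doublets in the cells with both coreceptors was not tested.

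The 5 genes proposed as markers of these cells were CD8A, CXCR6, GZMB, FCER1G and NCR3. The study had reported them in its MAIT-like cluster of these same data, so the tests below are not independent support. NCR3 encodes NKp30, an activating NK cell receptor, and stood at 664, 342, 388 and 464 CPM in MAIT-like cells of dogs 1 to 4 and at 195, 94.6, 176 and 220 CPM in the other CD8A+ CD4- cells. Every dog was higher in MAIT-like cells and the groups did not overlap, a difference of 1.46 ± 0.26 on the log2 scale (SE; edgeR adjusted p = 0.0092). CXCR6 stood at 77.7, 69.2, 83.6 and 62.0 against 23.6, 34.4, 21.3 and 14.3 CPM, again without overlap (1.70 ± 0.25, edgeR adjusted p = 0.0035).
FCER1G stood at 512, 1110.3, 1049 and 243 CPM in MAIT-like cells and at 211, 335, 146 and 459 CPM in the others. It was higher in dogs 1, 2 and 3 and lower in dog 4, so the groups overlapped and the difference of 1.37 ± 0.41 did not pass (edgeR adjusted p = 0.115). It passed with the dog as a block (edgeR adjusted p = 0.0045) and with 1 cell per clone (1.58, edgeR adjusted p = 0.0072).
Granzyme B (GZMB), the protease of cytotoxic granules, stood at 2681, 1693, 1629.7 and 2918 CPM against 911, 955, 1429.6 and 1678, higher in all 4 dogs within each dog although the groups overlapped (0.87 ± 0.23, edgeR adjusted p = 0.0783, and 0.00015 with the dog as a block, and 0.281 with 1 cell per clone, where the difference was 0.66). CD8A, which the comparator was gated on, was given no test and stood at 1632, 1616, 1869 and 1639 CPM against 1266, 1264, 1559 and 1577.

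A UMI of GZMB was read in 86.9% of MAIT-like cells, NCR3 in 74.1%, FCER1G in 61.3% and CXCR6 in 22.4%. In 13244 CD4+ CD8A- cells, of a median depth of 3955 UMIs, the same genes were read in 2.30%, 0.921%, 0.355% and 3.75%. The label of these cells rests on their receptor and on that expression, and SLC4A10, a transporter gene that marks human MAIT cells, could not be judged at this depth. It had a UMI in 0 of 715 MAIT-like cells, which allows up to 0.420% of cells with a UMI and sets no limit on cells that express it, and the 5758 other CD8A+ CD4- cells held 5 UMIs.

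**Figure D2:**
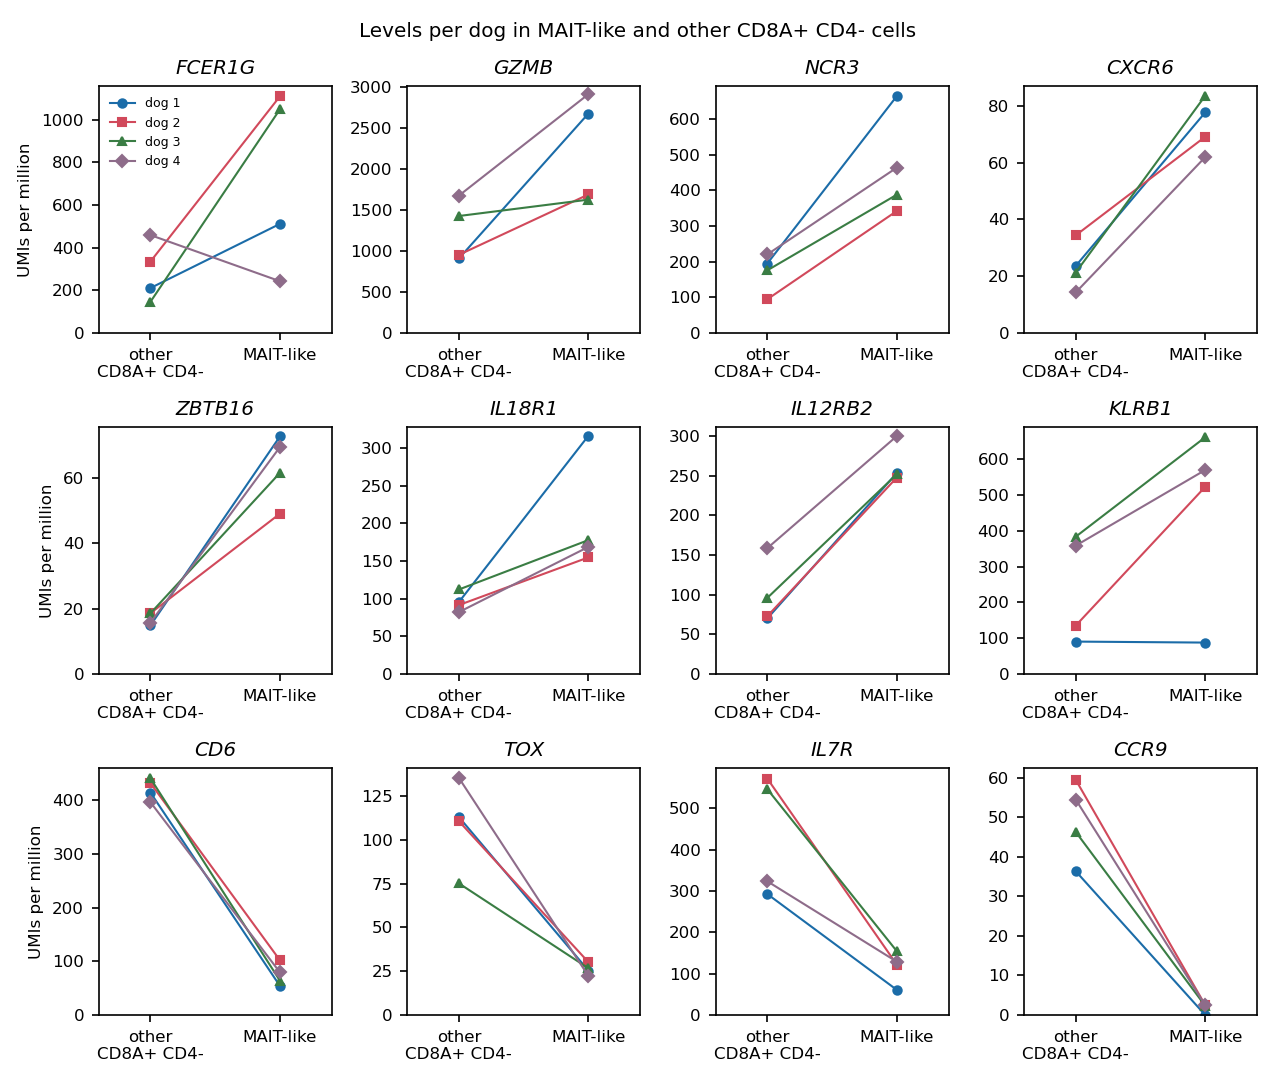
Levels of 12 genes (vertical axes, CPM of summed UMIs, from 0) in MAIT-like cells and in the other CD8A+ CD4- cells, with a line joining both values of each dog. FCER1G fell along the line of dog 4 alone, KLRB1 was level in dog 1, and the lines for ZBTB16, CXCR6, NCR3, IL12RB2, CD6, TOX, IL7R and CCR9 ran the same way in all 4 dogs without overlap.

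Across the transcriptome, 225 of 7890 genes tested differed between MAIT-like and other CD8A+ CD4- cells at an adjusted p under 0.05 (2.85%), 122 higher (1.55%) and 103 lower (1.31%), and 222 of the 225 moved the same way in all 4 dogs. The number was 594 with the dog as a block, 318 higher and 276 lower, and 224 of the 225 were among them. With 1 cell per clone it was 156, 91 higher and 65 lower, and 136 of the 225 were among them. A cell without both chains read counted as its own clone in such fits, so 370 MAIT-like cells were kept in this one. Of the genes named in the paragraphs that follow, NR4A1, RUNX3, JUND, CD5, TGFBR2, CD28, ITGA1 and MAPK15 kept their direction and lost their call there (edgeR adjusted p from 0.0560 to 0.323), and IL2 could not be tested. Of all genes tested 9.68% did not overlap between the groups of dogs, and their median log2 difference was 0.00. The gene groups that follow are described by counts and medians beside these shares and were not tested as lists. With the dog as a block their counts up and down were 9 and 1 for MAIT genes, 6 and 0 for cytotoxic genes, 9 and 0 for NK receptors, 3 and 6 each for receptor signalling and for naive and memory genes, 6 and 2 for transcription factors, 7 and 6 for homing receptors, 5 and 2 for cytokine receptors, 0 and 2 for cytokines, 0 and 3 for proliferation, 7 and 2 for activation, 0 and 2 for inhibitory genes, 0 and 1 for MHC class II and 1 and 0 for interferon-stimulated genes. Without the cells of dog 1 whose receptor was also read in dog 4, 218 genes passed, 119 higher and 99 lower, 217 of them among the 225.

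Of 14 tested genes of MAIT and other innate-like T cells, 5 rose and 0 fell, with a median of 0.85 on the log2 scale. ZBTB16, the gene of the innate-like lineage factor PLZF, stood at 72.6, 49.0, 61.5 and 69.4 CPM in MAIT-like cells and at 14.9, 18.6, 18.6 and 15.7 CPM in the others (1.88 ± 0.17, edgeR adjusted p = 7.4e-05). The lowest MAIT-like value was well above the highest of the others. IL12RB2, a receptor subunit for interleukin-12, and IL18R1 and IL18RAP, subunits for interleukin-18, rose with it. IL12RB2 stood at 253, 248, 252 and 299.9 CPM against 70.04, 72.9, 95.9 and 159 (1.40 ± 0.22, edgeR adjusted p = 0.0054), IL18R1 differed by 1.11 and IL18RAP by 0.76, and for IL18RAP dog 4 went the other way. KLRB1, which encodes the lectin CD161 of human MAIT cells, stood at 87.9, 523, 662 and 570 against 90.6, 135, 384 and 359 CPM. It was higher in dogs 2, 3 and 4 and level in dog 1 (0.93, edgeR adjusted p = 0.477, and 0.00046 with the dog as a block). CCR6, a homing receptor of human MAIT cells, was low at 3.38, 5.03, 5.80 and 4.96 against 28.0, 23.2, 9.03 and 26.0 CPM and fell short of the threshold (-2.07, edgeR adjusted p = 0.0638), which it passed with the block (edgeR adjusted p = 0.00057).

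Of 14 tested receptors and adaptors of NK cells, 7 rose and 0 fell (median 0.97). Besides NCR3, NCR1, which encodes NKp46, stood at 28.7, 72.9, 52.2 and 29.7 CPM against 6.13, 9.02, 11.7 and 17.3 (2.06 ± 0.32, edgeR adjusted p = 0.0051). KLRD1, which encodes CD94, stood at 1029, 978, 1081 and 1155 against 277, 402, 631 and 608 CPM (1.16 ± 0.21), and KLRK1, which encodes NKG2D, differed by 0.84. SH2D1A, the adaptor SAP that innate-like lineages need, stood at 596, 498, 468 and 434 against 153, 228, 239 and 184 CPM (1.33 ± 0.15, edgeR adjusted p = 0.00043). In each of these 5 genes all 4 dogs were higher and the groups did not overlap. SLAMF7 and KLRG1 made up the 7.
Markers of NK cells themselves were summed in the same libraries. Of the list of 6 NK cell markers 4 have a symbol in the gene list, and their sum was 1249, 1843, 2117 and 1363 CPM in MAIT-like cells against 464, 652, 712 and 852. IL2RB, a subunit of the interleukin-2 and interleukin-15 receptors that T cells also express, made up most of it at 1592 against 657 CPM on average (1.30, past the threshold), and KLRF1 had 5 UMIs in the 715 cells (0, 5.03, 1.16 and 0 CPM) and 1 UMI in the 5758 others (0, 0.184, 0 and 0 CPM). Each of the 715 cells carried a rearranged TRA chain and the libraries were sorted on TCRαβ, which NK cells lack.

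Cytotoxic genes gave few calls. Of 12 tested, 1 rose and 0 fell (median 0.53), and 6 rose with the dog as a block. The gene past the threshold was CTSW, a granule-associated cathepsin, at 634, 724, 584 and 674 against 357, 344, 285 and 395 CPM (0.94 ± 0.11, edgeR adjusted p = 0.00043). Perforin (PRF1) had a difference of 1.19 and an edgeR adjusted p of 0.0509, FASLG of 1.01 and 0.0783, and GZMA of 1.12 and 0.127, while GZMK stood at 0.01.

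Genes of T cell receptor signalling moved in both directions, 2 up and 4 down of 17 (median -0.07). CD6 stood at 54.1, 102, 63.8 and 79.3 CPM in MAIT-like cells against 414, 431, 440.2 and 396 CPM, which was 5.55-fold lower (-2.47 ± 0.15, edgeR adjusted p = 3.8e-06). No dog came near the other group. LAT, the scaffold downstream of the receptor, fell by 1.77 on the log2 scale, the costimulatory receptor CD28 fell by 1.16 and the inhibitory co-receptor CD5 fell by 0.64. ZAP70 and FYN, kinases of the same pathway, rose by 0.68 and 0.49.

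Genes of naive and memory T cells gave 0 up and 3 down of 12. IL7R, the interleukin-7 receptor that maintains resting T cells, stood at 60.8, 122, 154 and 129 against 292, 572, 546 and 323 CPM (-1.87 ± 0.28, edgeR adjusted p = 0.0034). TCF7, the factor TCF-1 of naive and stem-like cells, fell by 1.52, and CD28 was the third. Of 14 effector transcription factors 3 rose and 2 fell. EOMES (1.32), IKZF2 (1.14) and RUNX3 (0.86) were higher, and TOX and ZNF683 were lower. TOX, known for its part in exhausted and chronically stimulated CD8 T cells, stood at 25.3, 30.2, 26.7 and 22.3 against 113, 111, 75.1 and 135 CPM (-2.001 ± 0.21, edgeR adjusted p = 0.0003), and ZNF683, which encodes Hobit of tissue-resident cells, fell by 1.89. CTLA4 fell by 1.86, and with TOX it made up the 2 of 5 inhibitory genes that fell.

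Of 20 chemokine receptors and integrins, CXCR6 rose and 4 genes fell (median 0.24). CCR9, the receptor for homing to the small intestine, stood at 0, 2.51, 2.32 and 2.48 against 36.3, 59.4, 46.3 and 54.4 CPM (-4.68 ± 0.38, edgeR adjusted p = 5.6e-05). CXCR3, the receptor for interferon-induced chemokines, stood at 3.38, 2.51, 6.96 and 7.44 against 27.1, 49.3, 37.4 and 41.1 CPM (-2.98 ± 0.34), and the integrin subunits ITGAE and ITGA1 fell by 1.14 and 1.56. Both chemokine receptors were at or near the floor in every dog.
Of 12 cytokine receptors 4 rose, IL2RB, IL12RB2, IL18R1 and IL18RAP, and 2 fell, IL7R and TGFBR2 (-0.83). Of 8 cytokines and chemokines 0 rose and 1 fell, IL2, with 3 UMIs against 258, a ratio of pooled levels of 0.103 (95% exact interval from counting 0.0210 to 0.303). IFNG also had 3 UMIs, against 316, and did not pass (edgeR adjusted p = 0.0627).

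Among the remaining groups, STMN1, a gene of dividing cells, was the 1 of 6 proliferation genes that fell (-0.81), and 0 rose. NR4A1 (0.95), TNFAIP3 (0.63) and JUND (0.32) were the 3 of 13 genes of activation and the AP-1 factors that rose. The interferon-stimulated BST2 rose by 0.80 as the 1 of 11, and 0 of 6 MHC class II genes passed. The medians of these groups were -0.69 for proliferation, 0.32 for activation, -0.19 for interferon-stimulated genes and -0.08 for MHC class II.

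Across all genes past the threshold that have a symbol, a mean of at least 20 CPM in either population and a shared direction in the 4 dogs, the largest increases were those of PI3, TNS3, RARRES2, VTCN1, FBLN5, MAP3K8, NCR1, SPARC, RAB31 and PIK3AP1. PI3, which encodes the elastase inhibitor elafin, stood at 65.9, 372, 678 and 798 against 8.32, 37.7, 34.7 and 19.2 CPM (4.19 ± 0.58, edgeR adjusted p = 0.0023). It differed between clones as well, at 0 UMIs in the 36 cells of the largest clone of dog 1 and 1368 CPM in the largest clone of dog 3. With MAIT-like cells left out, its reads also followed TRAV9-2 (36 cells) and TRBV30 (45 cells). Whether the PI3 row holds receptor reads was not tested. TNS3, a focal adhesion protein, differed by 3.05, the chemoattractant RARRES2 by 2.67, the B7 family member VTCN1 by 2.56, the matrix protein FBLN5 by 2.28, and the kinase MAP3K8 by 2.14. SPARC, RAB31 and PIK3AP1 differed by 2.05, 1.95 and 1.92.
By the same limits the largest decreases were those of GCSAM, CCR9, CXCR3, RCAN2, GALNT17, CD6, GNG3, JAML, MAPK15 and TOX. GCSAM, a signalling adaptor first described in germinal centre B cells, had 0 UMIs in MAIT-like cells and 487 in the others, at least 18.4-fold lower against a floor of 3 counts over the group. RCAN2, a regulator of calcineurin, stood at 8.45, 7.54, 15.1 and 2.48 against 67.4, 64.2, 54.8 and 71.2 CPM (-2.76 ± 0.25).

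**Figure D3:**
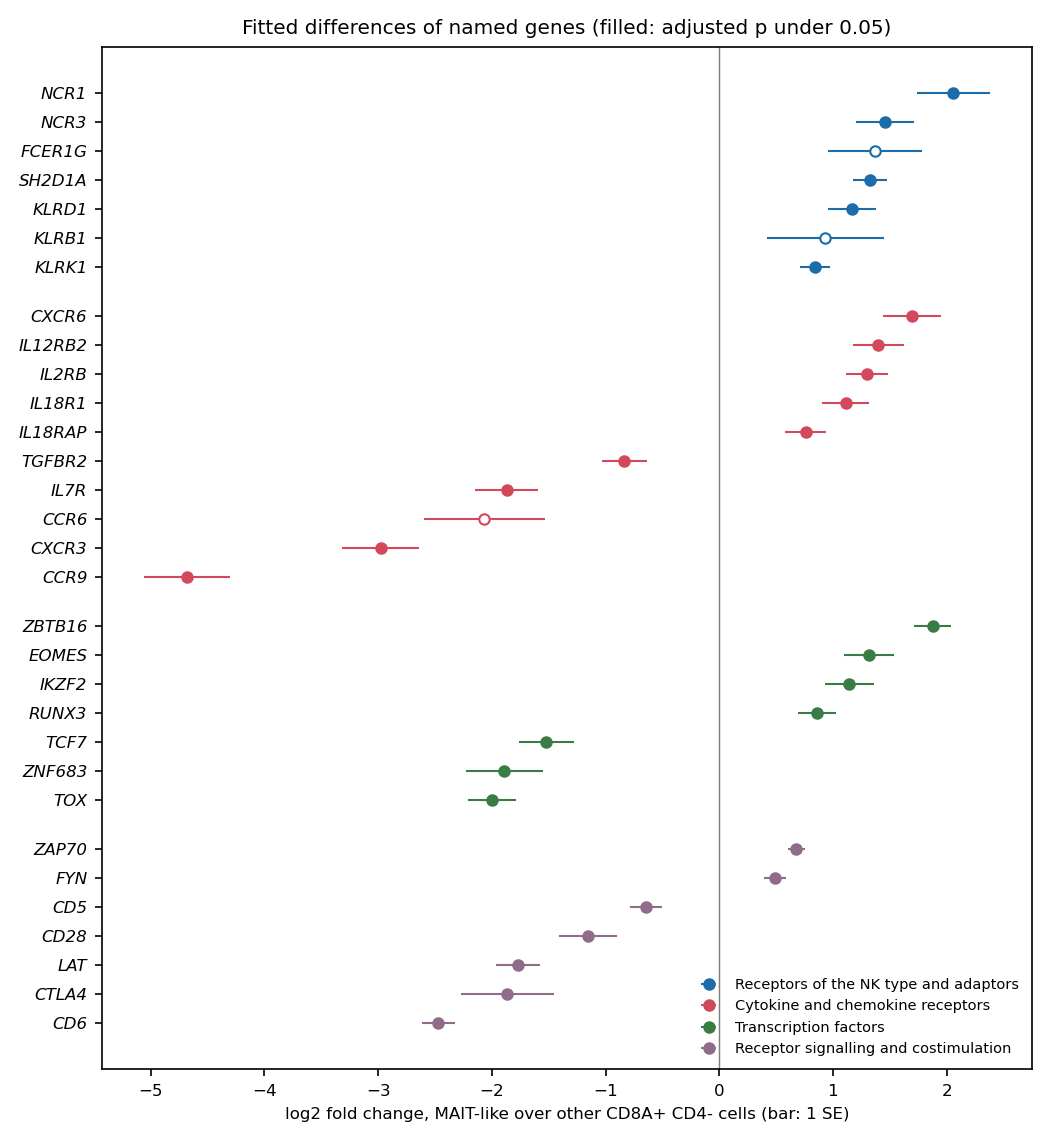
Differences between MAIT-like and other CD8A+ CD4- cells for 31 named genes in 4 groups (horizontal axis, log2 fold change from edgeR, bars of 1 SE, filled points past an edgeR adjusted p of 0.05). Genes of NK receptors and of interleukin-12 and interleukin-18 receptors lay to the right, and CCR9, CXCR3 and CD6 lay farthest to the left of those shown.

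Markers of other blood cells were checked in the same sums. B cell genes summed to 6.76, 0, 2.32 and 2.48 CPM, with CD22, CD79B, MS4A1 and PAX5 at 0. Monocyte and neutrophil genes summed to 458, 865, 1288 and 1120.5 CPM against 1002, 2019.6, 1931 and 1869 in the other CD8A+ CD4- cells, nearly all of it S100A8 (933 against 1705 CPM on average), while CD68, CSF1R, CSF3R, LYZ and S100A12 were at 0 in MAIT-like cells. Of 5 γδ T cell genes 2 have a symbol, SOX13 at 0 and BLK with 4 UMIs (3.38, 0, 1.16 and 2.48 against 0.438, 0.736, 0.251 and 1.56 CPM). Of 4 platelet genes 2 have a symbol, PPBP at 0 and ITGA2B with 3 UMIs (3.38, 0, 1.16 and 0 against 1.31, 0.368, 0.627 and 1.82 CPM), and of the erythroid list ALAS2 was at 0. Helper and regulatory T cell genes summed to 33.8, 78.0, 26.7 and 47.1 against 48.2, 83.4, 75.7 and 45.7 CPM.

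The next comparison asked which genes still differed when both sides had the same cytotoxic gate. Cells with at least 1 UMI of CD8A, FCER1G and GZMB and none of CD4 numbered 361 among MAIT-like cells and 621 among the rest. Only 681 cells of the gate had a TRA chain, the 361 included. Many of the 621 thus had none read and could carry the rearrangement unseen. A fit limited to cells with a TRA chain was not run in the gate. Of the cells in that gate with a TRA chain, MAIT-like cells made up 68.5% (61 of 89) in dog 1, 54.2% (110 of 203) in dog 2, 74.2% (167 of 225) in dog 3 and 14.02% (23 of 164) in dog 4. Dog 4 stood apart, with more of its gate held by other receptors. Across all CD8A+ CD4- cells with a TRA chain the shares were 29.4%, 17.1%, 14.8% and 6.94%.

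Within the gate 77 of 5477 genes passed (1.41%), 38 higher (0.694%) and 39 lower (0.712%), and all 77 moved the same way in the 4 dogs, while 6.55% of all genes tested did not overlap between groups. A fit blocked on dog gave 207 genes, 129 higher and 78 lower, and 1 that kept 1 cell per clone gave 16. ZBTB16 remained higher at 59.5, 46.4, 58.0 and 48.9 against 31.2, 25.0, 31.4 and 23.1 CPM (1.07 ± 0.24, edgeR adjusted p = 0.0298), without overlap, and IL18R1 differed by 1.02. Of 13 NK receptor genes 4 rose and 0 fell, NCR3 (0.88), SH2D1A (0.92), KLRK1 (0.71) and the inhibitory lectin KLRG1 (1.05). With 1 cell per clone these 4 kept their direction and lost their call, at 0.69, 0.79, 0.68 and 0.67 (edgeR adjusted p = 0.182, 0.109, 0.109 and 0.319), as did ZBTB16 (1.04, 0.306) and IL18R1 (1.05, 0.109). CXCR6 had a difference of 1.27 that did not pass (edgeR adjusted p = 0.296, and 0.049 with the block).
Genes of naive and memory T cells moved in both directions within the gate. CD27, a costimulatory receptor, differed by 0.72 and the chromatin organiser SATB1 by 0.92, whereas TCF7 fell by 1.003. With 1 cell per clone TCF7 stood at -0.39 (edgeR adjusted p = 0.692). CD27 stood at 0.58 and SATB1 at 0.90 in that fit, and neither passed (edgeR adjusted p = 0.254 and 0.199). The chemokine receptor CXCR4 was higher by 0.73 and the AP-1 factor FOS by 0.63, and BST2 was higher by 1.20. Taking 1 cell per clone, CXCR4 kept its call (edgeR adjusted p = 0.0195). FOS stood at 0.52 and BST2 at 1.05 there, and both lost their calls (edgeR adjusted p = 0.0685 and 0.0555). IRAK2, a kinase of the interleukin-1 and Toll-like receptor pathway, differed by 1.92, and FBLN5, ATXN7L1, RAPGEF5, VSTM1, GCAT and RAB31 by 1.12 to 1.55. GCAT lost its call with the block (edgeR adjusted p = 0.063). In the fit of 1 cell per clone RAPGEF5, VSTM1 and RAB31 stood at 1.23, 0.92 and 0.76. They lost their calls there (edgeR adjusted p = 0.0658, 0.303 and 0.340), and IRAK2, FBLN5, ATXN7L1 and GCAT had too few UMIs to be tested.

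On the lower side of the gate CD7, a marker of T and NK cells, stood at 365, 264, 312 and 306 against 652, 644, 633 and 593 CPM (-0.97 ± 0.13, edgeR adjusted p = 0.00046). CD6 stood at 51.0, 46.4, 54.4 and 24.4 against 183, 179.8, 166 and 157 CPM (-1.75 ± 0.17, edgeR adjusted p = 5.2e-05), and TOX fell by 2.04. With 1 cell per clone CD6 kept its call (-1.92, edgeR adjusted p = 0.00036), while CD7 stood at -0.63 (0.0865) and TOX at -1.27 (0.0970). CD5, which was lower before the gate, had a difference of 0.28 here (edgeR adjusted p = 0.673). MKI67, the proliferation antigen Ki-67, stood at 0, 7.32, 0 and 0 against 180, 21.9, 96.0 and 65.9 CPM. That was 3 UMIs against 192, a ratio of pooled levels of 0.0324 (0.00662 to 0.0961), and STMN1 fell by 1.23. CCR9 had 2 UMIs against 146, a ratio of 0.0284 (0.00341 to 0.104), and GCSAM had 0 against 109 UMIs, at least 17.5-fold lower. ITGAE (-1.22), ALOX15, SPECC1, LAT2, RCAN2, PHACTR2, ADA (-2.72) and TNFRSF6B were lower too, and SPECC1 alone of these overlapped between groups. When 1 cell per clone was kept, RCAN2 and PHACTR2 (edgeR adjusted p = 0.0195 each) and STMN1 (0.0387) kept their calls. ITGAE stood at -1.12 in that fit and lost its call (edgeR adjusted p = 0.385). ALOX15, SPECC1, LAT2, ADA, TNFRSF6B, MKI67, CCR9 and GCSAM could not be tested.

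Beta chains were not part of the rule. Among 694 TRB rearrangements of MAIT-like cells, TRBV28 made up 27.0%, 25.1%, 21.0% and 70.2% in dogs 1 to 4, against 4.22%, 3.28%, 10.3% and 3.56% in the other CD8A+ CD4- cells. Every dog was higher and the groups did not overlap (35.8% ± 23.0 against 5.35% ± 3.35, SD, n = 4 dogs; exact permutation p = 0.0286, adjusted over 14 TRBV genes 0.0444). Expanded clones added to the value of dog 4, and with each distinct rearrangement counted once the shares were 26.2%, 28.2%, 35.2% and 45.2% (mean 33.7% against 5.09%, exact permutation adjusted p = 0.0444).

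TRBV18 was the other gene used more, at 10.7%, 29.6%, 10.1% and 14.9% against 8.67% ± 1.09, and at 19.4% against 9.25% on average with each rearrangement counted once (exact permutation adjusted p = 0.0444 for both, n = 4 dogs). The margin by cells was narrow, since dog 3 had 10.1% in MAIT-like cells and 9.92% in the others. TRBV25 stood at 35.2%, 5.91%, 51.7% and 7.45% against a mean of 8.25% and did not pass by exact permutation (adjusted p = 0.338). With each rearrangement counted once it stood at 16.4%, 6.71%, 13.6% and 16.1% against 6.80% (0.0727). TRBV24 made up 5.21% against 2.63% (exact permutation adjusted p = 0.145), and 8.503% against 2.38% with each rearrangement counted once (0.0444).
The 7 remaining genes past the threshold were used less. The means were 0.561% against 13.9% for TRBV1, 1.53% against 10.5% for TRBV7, 4.95% against 12.1% for TRBV16, 1.12% against 7.26% for TRBV5-2, 0.860% against 6.81% for TRBV3-1, 1.09% against 5.93% for TRBV15 and 0.755% against 4.62% for TRBV26. Each had a smaller share in MAIT-like cells of all 4 dogs without overlap (exact permutation adjusted p = 0.0444), and TRBV5-2 alone of the 7 fell short with each rearrangement counted once (0.0727). TRBV genes past the threshold thus numbered 9 of 14, and 0 when paired by dog, where 4 pairs cannot give an exact permutation p below 0.125. A single gene at the smallest unpaired p could not have passed over 14 genes, and 0.0444 came from 9 genes reaching it together. The shares of a dog add up to a fixed whole, so higher shares of some genes lower the others. The 7 lower genes are therefore not separate results.

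**Figure D4:**
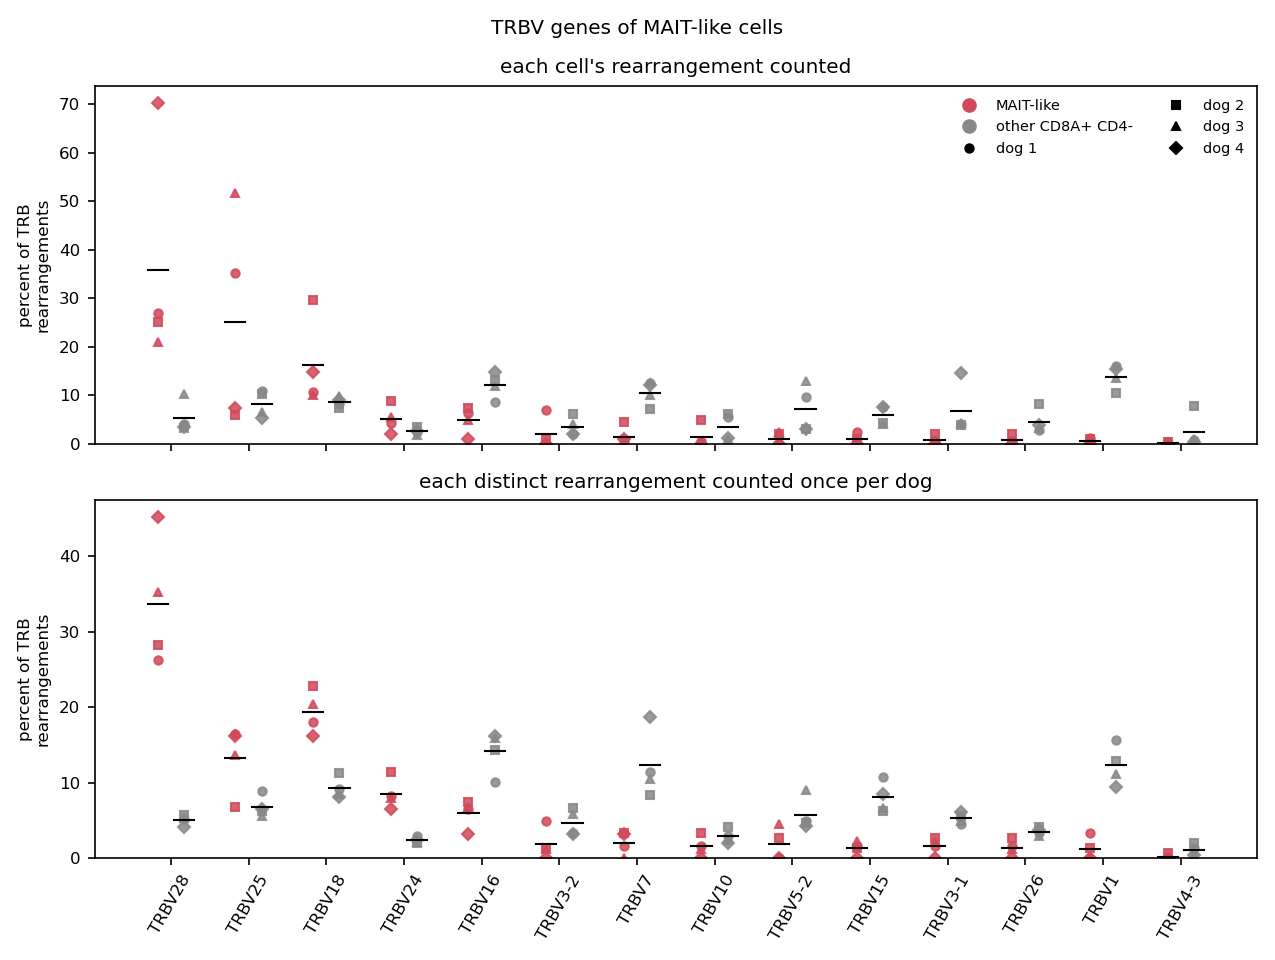
Share of TRB rearrangements that used each of 14 TRBV genes (vertical axis, percent) in MAIT-like cells and in other CD8A+ CD4- cells, with 1 point per dog and a bar at the mean, counting every cell (top) or each distinct rearrangement once per dog (bottom). TRBV28 stood out in both panels, and the spread of TRBV25 between dogs narrowed from the top panel to the bottom.

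For joining genes the design could not give a call to a single gene, since the smallest exact permutation p of 0.0286 becomes 0.286 when 1 of 10 TRBJ genes reaches it. By cells 0 of 10 passed, and TRBJ2-3 alone had an unadjusted exact permutation p under 0.05 (4.95% against 11.6%, p = 0.0286, adjusted 0.286). TRBJ1-2 was found in 11.9%, 16.7%, 16.8% and 50% against a mean of 11.8% (exact permutation adjusted p = 0.333), and in 22.5% against 11.3% with each rearrangement counted once, higher in all 4 dogs without overlap (exact permutation p = 0.0286, adjusted 0.286). TRBJ2-5 was found in 23.5% against 9.57% of rearrangements (exact permutation adjusted p = 0.333) and in 10.0% against 10.6% counted once. Junctions of 12 amino acids made up 2.52%, 16.3%, 8.82% and 64.9% against 5.61% (exact permutation p = 0.2), and those of 14 amino acids 45.3%, 26.1%, 61.8% and 6.38% against 21.8% (exact permutation p = 0.314). Counting each rearrangement once, those of 12 made up 16.9% against 6.55% on average (exact permutation p = 0.114). Those of 14 then made up 23.9% against 20.6% (exact permutation p = 0.314). Among the 103 distinct TRBV28 rearrangements 27.2% were 12 amino acids long, and 11 TRBJ genes were used.

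Clones, defined by identical alpha and beta junctions in a dog, numbered 319 among the 664 MAIT-like cells with a beta chain, 62, 144, 83 and 30 in dogs 1 to 4, and 256 of them were a single cell. The largest clone held 36 cells in dog 1 (22.4% of its MAIT-like cells), 12 in dog 2 (6%), 103 in dog 3 (40.9%) and 29 in dog 4 (28.4%). Dog 2 was thus the most even. Their beta junctions had no germline ends to compare with and are shown in lower case throughout.
Dog 1, TRBV25 with TRBJ2-1: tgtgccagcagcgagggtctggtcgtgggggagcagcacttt
Dog 2, TRBV18 with TRBJ2-1: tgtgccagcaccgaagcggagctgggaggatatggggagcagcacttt
Dog 3, TRBV25 with TRBJ2-5: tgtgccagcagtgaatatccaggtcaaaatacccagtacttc
Dog 4, TRBV28 with TRBJ1-2: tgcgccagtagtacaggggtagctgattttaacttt
Their alpha chains were the Ser-Arg-Leu, Ser-Arg-Met, Thr-Arg-Met and Ser-Asp-Arg junctions of those dogs shown above. Another 13 cells of dog 3 shared 1 alpha junction, Ser-Arg-Leu, and had no beta chain read, so whether they were 1 clone was not known.
Ser-Arg-Leu, 13 cells of dog 3: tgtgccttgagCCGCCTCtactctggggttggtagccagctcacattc

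Clones differed in FCER1G and were alike in holding GZMB. Of 15 clones of at least 5 cells, 285 cells in all, FCER1G ranged from 0 to 2720.45 CPM and GZMB from 907 to 4256 CPM. FCER1G was read in all 12 cells of the largest clone of dog 2 (2720.45 CPM), in 91 of the 103 cells in dog 3 (1030.02 CPM), in 14 of 36 in dog 1 (292 CPM) and in 0 of 29 in dog 4, which allows a share of up to 10.3%. The next clone of dog 4, of 23 cells, held 1 FCER1G UMI. Every cell of these clones of dog 4 held GZMB, at 3527 and 2597 CPM. No FCER1G UMI was read in 4 clones of 46 cells in all, which allows a share of up to 6.52%. A clone of 9 cells in dog 4 held FCER1G at 828 CPM, and the 73 MAIT-like cells of dog 4 outside its largest clone held 351 CPM, against 243 CPM in all 102. NCR3 was present in each of the 15 clones at 273 to 832 CPM, and 2 clones had no CXCR6 UMI. These are cells of single clones in single dogs, and no test was made between clones.

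**Figure D5:**
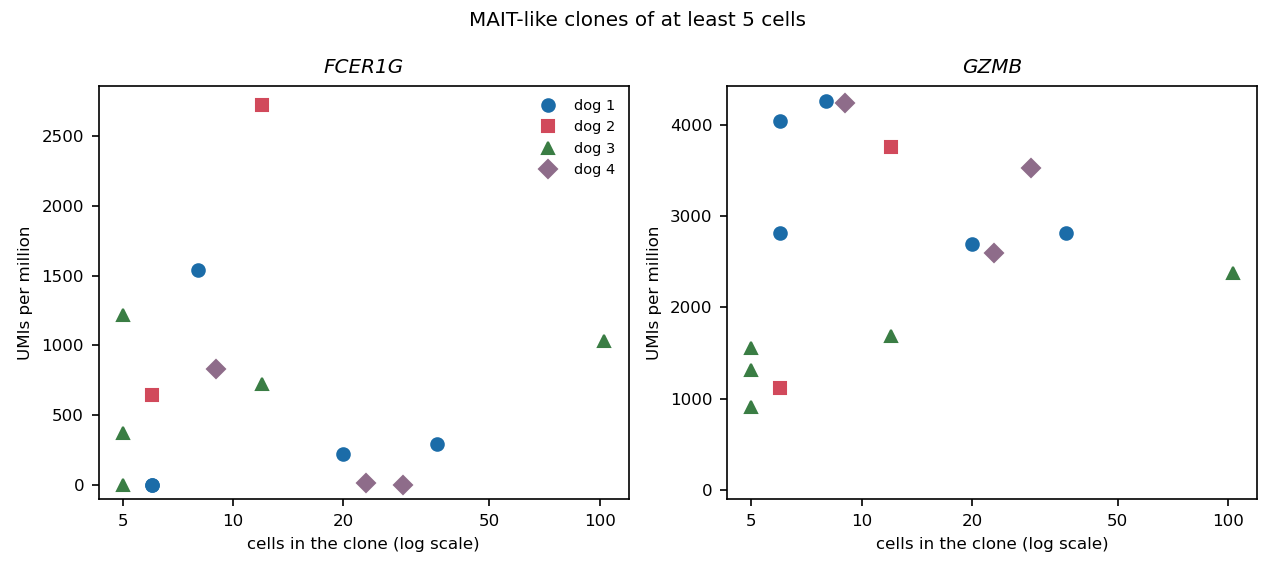
FCER1G and GZMB (vertical axes, CPM of summed UMIs) against the number of cells (horizontal axis, log scale) for the 15 clones of MAIT-like cells with at least 5 cells, marked by dog. FCER1G spanned 0 to 2720.45 CPM, with both of the larger clones of dog 4 at or near 0, while GZMB was 907 CPM or more in every clone.

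Finally, MAIT-like cells with TRBV28 were set against those with TRBV25. The 200 and 192 cells differed in 1 of 2600 genes tested (0.0385%), ANXA1, and in 5 with the dog as a block, 1 higher and 4 lower. ANXA1, which encodes the anti-inflammatory annexin A1, stood at 68.7, 77.1, 25.0 and 79.0 CPM with TRBV28 and at 255, 183, 292 and 899 CPM with TRBV25, lower in every dog and without overlap (-2.27 ± 0.35, edgeR adjusted p = 0.0066). An unadjusted p under 0.05 was found for 109 genes, while 2.27% of all genes did not overlap. The call was lost without dog 3 (-2.13, edgeR adjusted p = 0.0856). In dogs 2 and 4 the TRBV25 values rested on 8 UMIs in 11 cells and 25 UMIs in 6 cells, and 66.7% of those 6 cells held CD8A. With 1 cell per clone ANXA1 had too few UMIs to be tested, and 103 of the 192 TRBV25 cells were 1 clone of dog 3. That clone held 111 of the 113 ANXA1 UMIs in the TRBV25 cells of dog 3. In dog 1 the largest clone, of 36 cells, held 40 of 46. The remaining TRBV25 cells of these dogs thus held few, and whether ANXA1 went with the beta gene or with single clones was not tested. FCER1G stood at 525, 1055.8, 877 and 158 CPM against 633, 1075, 1044 and 216 (-0.28 ± 0.39), GZMB differed by 0.27, NCR3 by 0.05 and CXCR6 by -0.71, and their adjusted p was 0.9996.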

How the data were processed

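Each dog gave 1 expression and 1 V(D)J library, processed by the authors with Cell Ranger 5.0.1 per the labels. The deposited matrices hold raw counts of UMIs per gene and cell. The deposited V(D)J tables give each rearrangement's V and J gene, junction and UMI count. Which germline gene set was used was not stated in the sources used here, and germline ends were read from the tables' own germline column. The feature list of dog 1 has 27980 lines for a matrix of 20257 genes, so the list of dog 2 named the genes of all matrices. Of these, 4453 have an identifier only and are not named.

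Cells with 500 to 20000 UMIs and at most 10% mitochondrial UMIs were kept, and no doublet caller was run. UMIs were summed per dog and population and tested with edgeR 4.0.16 (quasi-likelihood test, filterByExpr, TMM scaling, Benjamini-Hochberg adjustment) in R 4.3.3, after a test on simulated data. A gene was called at an adjusted p under 0.05, and CPM values are UMIs of a gene over all UMIs of the sum. Genes with a T cell receptor symbol were left out of the tests. Other rows stayed in, among them rows whose reads followed a V gene at least 10-fold. Such rows made up 13 of the 225 genes called without the gate, 7 of the 77 within it and 0 between TRBV28 and TRBV25. DESeq2 1.42.0 was an alternative. Shares were compared over dogs with exact two-sided permutation tests in scipy 1.17.1. The dog pairs the sums, since both populations came from the same animals: deviations of the same dog correlated at 0.252 to 0.382 in the comparison with CD8A+ cells, 0.119 to 0.242 in the gated one and 0.0356 to 0.258 between TRBV28 and TRBV25. Since the populations come from the same 4 animals, p-values measure the spread between those animals.

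The members and gene lists were chosen with earlier results of these data known. Genes were named if they were markers given for the cells, were among the 4 with the highest CPM of a list's called genes, made up a count of 5 or fewer, were MAIT lineage genes, or were among the 10 largest changes per direction with a symbol, at least 20 CPM and the same sign in all dogs. Of 242 list genes 34 have no symbol here, CD8B among them. KLRG1 and SLAMF7 in the ungated comparison, PRF1, FASLG, GZMA, GZMK and IFNG without the gate, and TRBJ genes under 5 points were named after their values were seen. TRBV and TRBJ genes with a mean of at least 2% were tested. A few genes are not reported here.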

Additional observations from a re-analysis of the deposited data

Results flagged for a closer look

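In 15 of 157 groups of 4 dogs, 1 dog lay apart from the others by Dixon's test at the 95% level, where chance alone gives about 7.85. In MAIT-like cells, dog 4 had the highest share of TRBV28 (70.2%, next 27.0%) and of TRBJ1-2 (50%, next 16.8%), and its largest clone, of 29 cells, used both. With each rearrangement counted once, dog 4 had 45.2% and 29.0% of these genes. Dog 4 was also highest in IL12RB2 (299.9 CPM, next 253) and lowest in CD28 (14.9 CPM, next 23.9). Dog 1 was highest in IL18R1 (316 CPM, next 178), and CCR9 stood at 0 in dog 1, where the next value was 2.32 CPM.

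The other groups were comparators. In other CD8A+ CD4- cells, dog 1 lay apart with EOMES at 24.1 CPM (next 50.2) and ITGA1 at 55.6 CPM (next 35.7). Dog 3 lay apart with MAPK15 at 16.05 CPM (next 24.8), GCSAM at 10.5 CPM (next 25.7) and TRBV28 at 10.3% (next 4.22%). Dog 4 lay apart with RARRES2 at 8.84 CPM (next 21.5), NR4A1 at 91.7 CPM (next 63.0) and TRBV3-1 at 14.7% (next 4.42%). Of its other cells with a TRA chain 30.4% had neither coreceptor, against 34.0% in the next dog.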

How the results depend on the processing

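Of 1637 values of 118 named genes and shares under the alternatives, 1403 kept their direction and side of the threshold, 202 fell short of it, 20 passed it and 12 changed sign. Genes called against other CD8A+ CD4- cells numbered 225, 594 with the replicate block (dog), 348 with DESeq2, 340 with no filter on low counts, and 71 (without dog 2) to 199 (without dog 4) with 1 dog left out, where 116 remained without dog 1 and 154 without dog 3. In the gated comparison they numbered 77, 207 with the block, 214 with no filter, 16 with 1 cell per clone, and 32 to 62 with a dog left out, namely 62, 34, 32 and 39 without dogs 1 to 4. The share of higher calls there was 49.4%, and 62.3% with the block, 39.1% with DESeq2 and 40.2% with no filter. Between TRBV28 and TRBV25 the count was 1, 5 with the block, 7 with no filter, 0 with 1 cell per clone (21 at an unadjusted p under 0.05 by edgeR), and 0 (without dog 3, 90 unadjusted) to 2.

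In that last comparison IL18R1, KLRB1, GZMB, ZBTB16 and NCR3, none of them called, changed sign (log2 differences). IL18R1 was 0.12 with the block, and -0.47 to 0.13 with a dog left out. KLRB1 was 0.0197 with DESeq2, 0.0291 with no filter and 0.42 with 1 cell per clone, and -0.26 to 0.82 with a dog left out. With a dog left out GZMB was -0.13 to 0.50, ZBTB16 -0.0779 to 0.45 and NCR3 -0.13 to 0.27. TRBJ2-5 became -0.53 points with each clone counted once.

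The count of TRBV genes past the threshold was 9, and 0 under the block and without each dog, since a paired exact permutation test of 4 dogs cannot go below 0.125 and 3 dogs against 3 cannot go below 0.1. The CD8A difference was 76.7 points with the block (exact permutation p = 0.125) and 73.2 to 79.3 with a dog left out. Alternatives chosen after seeing the data were few. Leaving out the cells of dog 1 whose receptor was also read in dog 4 gave 218, 72, 1 and 9 calls in these 4 comparisons, and leaving out genes that follow a V gene gave 206, 73 and 1. The planned CD8B to CD8A ratio was not run. With 6 to 11 TRBV25 cells in dogs 2 and 4, small differences between beta chains were not detectable at this depth.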
